A study of Mus musculus with 2 samples.

Results

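Tbx21 and Eomes, the genes of the T-box transcription factors T-bet and Eomesodermin, were followed through the open chromatin of mouse T-helper 1 cells. Every region of the deposited lists that overlapped either gene, as annotated in GENCODE M21, or the 50 kb on either side of it was taken. These were 42 of 98875 regions in replicate 1 and 38 of 91488 in replicate 2, and overlaps of at least 1 bp joined them into 36 shared regions of 84380 in all. The Tbx21 window (chr11:97048071-97165331, gene on the minus strand at 97098071 to 97115331) held 28 and 26 regions, of which 24 were shared. The Eomes window (chr9:118428212-118536132, gene on the plus strand at 118478212 to 118486132) held 14 and 12, of which 12 were shared. All coordinates are mm10, all pairs of values give replicate 1 first, and distances run from a gene's annotated start, positive in the direction of transcription.

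The series holds 1 group, primary T-helper 1 cells of C57BL/6NJ mice profiled by ATAC-seq, with 2 biological replicates. ATAC-seq marks DNA that a transposase can reach. No genetic change or second condition is given, age and sex are unknown, and both replicates carry the same donor identifier, so whether they came from separate animals is not stated and their spread may be technical. The region names also carry a time of 96 hours and the words ASTARR and insert, whose meaning is not stated, so the assay is named as the labels name it.

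T-bet is the lineage-defining factor of T-helper 1 cells. Interferon-γ and interleukin-12 signals acting through STAT factors induce it, and with Runx3 it activates Ifng and represses the programmes of other helper lineages. Eomesodermin is its close paralogue and is best known from CD8 T cells and natural killer cells, where both factors support cytotoxic genes. T-box factors bind DNA through a shared domain, at sites related to the letters GGTGTGA.

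The sequences below are the ones the results turn on, read from the GRCm38.p6 assembly in the direction of each gene's transcription. Each run is 201 bases around the replicate 1 summit, the position of the highest signal, except for the Tbx21 promoter, where the 250 bases before the RefSeq start are given. Capitals mark matches to the 11 motifs searched and are descriptions of letters, not binding sites. The Tbx21 promoter (chr11:97115332-97115581, minus strand) held an ETS and a CTCF match. The most enriched region of the Tbx21 window, at −43.9 kb (chr11:97159133-97159333, minus strand), held an ETS match and no CpG. The region at −11.7 kb (chr11:97126972-97127172, minus strand), chosen after its values were seen, held matches of 5 motifs, the AP-1 and TCF matches overlapping, and 12 CpG. The Eomes region at 11.6 kb (chr9:118489690-118489890, plus strand), also chosen after its values were seen, held a T-box and a CTCF match. The region of highest mean signal over both replicates outside promoters in the Eomes window, though not the highest in replicate 1, at 54.7 kb (chr9:118532851-118533051, plus strand), held an AP-1 match.
Tbx21 promoter: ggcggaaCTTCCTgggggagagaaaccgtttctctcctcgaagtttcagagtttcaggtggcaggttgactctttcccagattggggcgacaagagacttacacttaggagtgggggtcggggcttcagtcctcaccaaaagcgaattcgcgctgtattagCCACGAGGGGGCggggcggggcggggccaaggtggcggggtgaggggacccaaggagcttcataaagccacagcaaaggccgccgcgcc
Tbx21 −43.9 kb: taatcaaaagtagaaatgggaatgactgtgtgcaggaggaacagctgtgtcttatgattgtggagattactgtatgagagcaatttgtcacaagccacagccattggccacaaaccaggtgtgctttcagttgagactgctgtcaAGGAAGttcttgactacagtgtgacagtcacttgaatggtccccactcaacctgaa
Tbx21 −11.7 kb: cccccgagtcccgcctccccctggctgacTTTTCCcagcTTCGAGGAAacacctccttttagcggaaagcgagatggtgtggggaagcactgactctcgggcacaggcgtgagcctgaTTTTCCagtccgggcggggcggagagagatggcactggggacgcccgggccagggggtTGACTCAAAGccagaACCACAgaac
Eomes 11.6 kb: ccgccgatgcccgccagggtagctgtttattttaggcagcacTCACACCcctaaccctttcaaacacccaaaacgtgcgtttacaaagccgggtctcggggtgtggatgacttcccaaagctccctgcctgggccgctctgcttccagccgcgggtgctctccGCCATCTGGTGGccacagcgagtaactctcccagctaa
Eomes 54.7 kb: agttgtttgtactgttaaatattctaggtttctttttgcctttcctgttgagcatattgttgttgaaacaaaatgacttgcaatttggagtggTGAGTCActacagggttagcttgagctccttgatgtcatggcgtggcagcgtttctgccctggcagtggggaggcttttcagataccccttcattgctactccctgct

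Tbx21 lay in one of the stretches densest in open chromatin around any gene, whereas Eomes lay above the median gene but not in the tail. The Tbx21 window held 20.5 shared regions per 100 kb, at percentile 99.8 among the windows of 21938 protein-coding genes, drawn by the same rule. The median gene had 6.56 (interquartile range 2.06 to 9.95), and 33 genes, Tbx21 itself not counted, had as many or more. Among those 33 were Ifng, the main cytokine target of T-bet, with 22 shared regions, and Tbkbp1, the neighbour upstream of Tbx21, with 24. The windows of Tbx21 and Tbkbp1 overlap, so they share regions. Eomes had 11.1 per 100 kb, at percentile 82.2. Outside promoters Tbx21 kept 16 regions (percentile 99.5) and Eomes 7 (percentile 78.8). Open regions covered 19.2% of the Tbx21 window and 9.86% of the Eomes window.

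**Figure D1:**
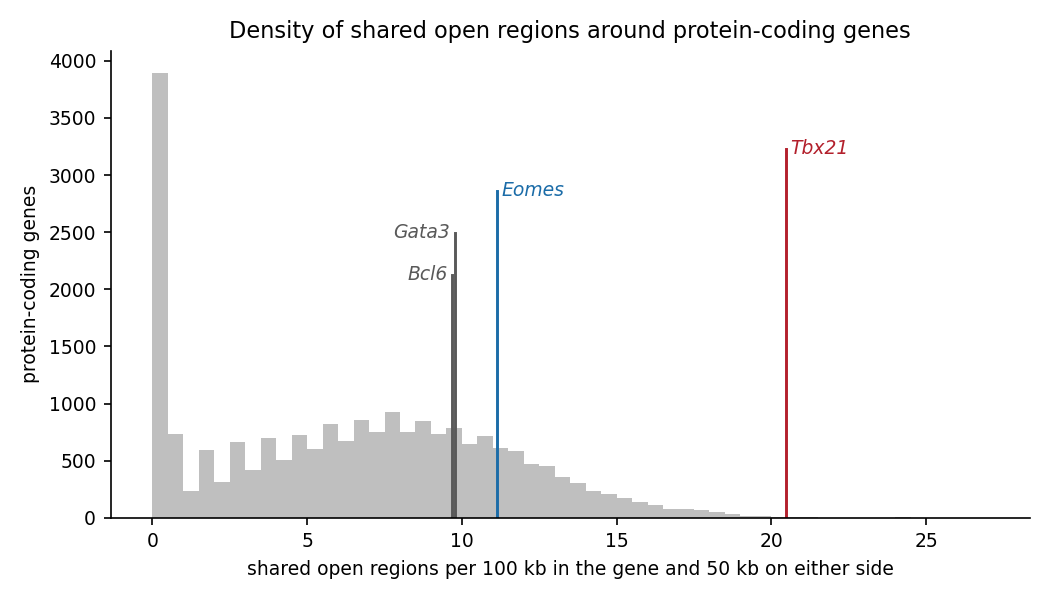
Number of shared open regions per 100 kb (x axis) in the windows of all 21938 protein-coding genes (grey histogram, y axis: genes), with lines of arbitrary height at 4 genes. Tbx21 stands at 20.5 in the far tail, Eomes at 11.1, and Gata3 and Bcl6, factor genes of other helper lineages, at 9.78 and 9.69.

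Most regions of both windows were present in both replicates. Of the regions of replicate 1, 85.7% in the Tbx21 window and 85.7% in the Eomes window were found in replicate 2, beside 86.6% over all regions. Of the regions of replicate 2, 96.2% and 100% were found in replicate 1, beside 93.0% over all regions. These shares are near the background and show nothing particular to the T-box genes. The regions seen in 1 replicate alone were weak. Around Tbx21 they were 4 of replicate 1 and 1 of replicate 2, all intergenic between 20.3 and 25.2 kb, beyond the end of the gene, with signals from 1.66 to 2.15. Around Eomes they were 2 of replicate 1, at 8.7 and 9.7 kb, with signals of 2.05 and 2.07.

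Strength is given on 2 scales. The deposited signal is the authors' enrichment of a region over a reference that is not stated. Together with the deposited −log10 p, it implies for 99.97% and 99.94% of regions a whole-number pileup, the number of overlapping fragments or cut sites at the summit, and a local background. This reading was chosen after the data were seen, and the pileup is a reading of the lists, not one of their columns. The lowest background, shared by 31.3% and 29.5% of regions, was 6.222 and 5.511, and a pileup divided by it is called here the fold over the genome-wide background. The signal is therefore relative to the surroundings of a region, and this fold is not.

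The Tbx21 promoter was open in both replicates at the same position. Its region (chr11:97114402-97116259) covered exon 1, and both summits lay 4 bp from the annotated start. The signal was 5.48 and 5.65, the −log10 q 121 and 113, and the implied pileup 312 and 283, which is 50.1-fold and 51.4-fold over the genome-wide background. The replicates differed by less than the spread seen over all shared regions (ratio 0.970; central 95% range 0.741 to 1.42). The 2 scales placed this promoter differently. Among the open promoters of protein-coding genes it stood at percentile 11.1 by signal, at 30.9 by −log10 q and at 48.3 by pileup. The local background at its summit was 9.02 and 8.95 times the genome-wide one.

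The Eomes promoter was open too, in 2 regions. The stronger one, at 0.9 kb (chr9:118478435-118479634), lay almost wholly in exon 1, with a signal of 7.77 and 7.95 and summits 1 bp apart. Its −log10 q was 95.6 and 70.3 and its pileup 182 and 130, which is 29.3-fold and 23.6-fold over the genome-wide background. The weaker one, at −1.7 kb (chr9:118476314-118478220), reached the annotated start from upstream, with a signal of 3.30 and 3.12 and a pileup of 73 and 50. In both replicates the region inside the gene was the stronger. By any of the 3 measures the Eomes promoter stood low among open promoters, at percentile 24.1 by signal, 23.2 by −log10 q and 24.7 by pileup. Thus Eomes had the higher promoter signal and Tbx21 the higher promoter pileup, with no overlap between the replicates of the 2 genes on either scale. The ratio of observed to expected CpG was 0.761 at the Tbx21 promoter (percentile 74.1) and 0.622 at that of Eomes (percentile 56.2). Both are above the median gene (0.552) and within the interquartile range (0.218 to 0.768).

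The strongest open chromatin of the Tbx21 window lay far upstream of the gene. The intergenic region at −43.9 kb (chr11:97158910-97159675), between Tbkbp1 and Kpnb1, had a signal of 12.0 and 12.8, a −log10 q of 496 and 485 and a pileup of 722 and 680. It ranked first of 24 in both replicates by signal, by −log10 q and by pileup, its summits coincided, and its pileup exceeded that of 98.5% and 99.0% of all shared regions. The nearest coding start was that of Tbkbp1, not of Tbx21. Tbkbp1 encodes an adaptor that binds the kinase TBK1.

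The region at −11.7 kb (chr11:97126437-97128210), intergenic between Tbx21 and Tbkbp1, showed how far the scales can part. Its signal of 5.49 and 5.29 exceeded that of only 36.5% and 36.0% of shared regions, while its pileup of 661 and 557 exceeded that of 97.9% and 97.7%. Its local background was 19.2 and 18.9 times the genome-wide one. A pair of neighbours lay in the same stretch, at −13.8 kb (signal 3.03 and 2.93, pileup 376 and 316) and at −16.4 kb (2.35 and 2.29, pileup 275 and 232), on backgrounds of 18.3-fold to 19.8-fold. All 3 have Tbx21 as their nearest coding gene. By signal they ranked between 7 and 22 of 24, and by pileup between 2 and 6.

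A raised background ran along the whole upstream side of Tbx21. The 12 upstream regions had local backgrounds of 7.80-fold to 19.8-fold in replicate 1 and 7.97-fold to 19.5-fold in replicate 2. The 5 regions of the gene and its promoter had 2.39-fold to 9.02-fold and 2.13-fold to 8.95-fold, and the 7 regions downstream 1.00-fold to 4.15-fold and 1.00-fold to 3.82-fold. Every upstream region was thus on a higher background than every downstream one, in both replicates. The pileup followed the same order upstream against the rest, with a median of 39.4-fold and 37.0-fold upstream, 16.2-fold and 12.7-fold in the gene and 17.4-fold and 16.3-fold downstream. The deposited signal did not, with medians of 4.19 and 3.94, 4.55 and 4.05, and 5.40 and 5.99. Over all shared regions the median background was 1.74-fold in both replicates and the 90th percentile 6.54-fold and 6.47-fold, and 14 of the 24 Tbx21 regions exceeded that percentile. None of the 12 Eomes regions did. The part of the density of open regions in this background was not tested.

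**Figure D2:**
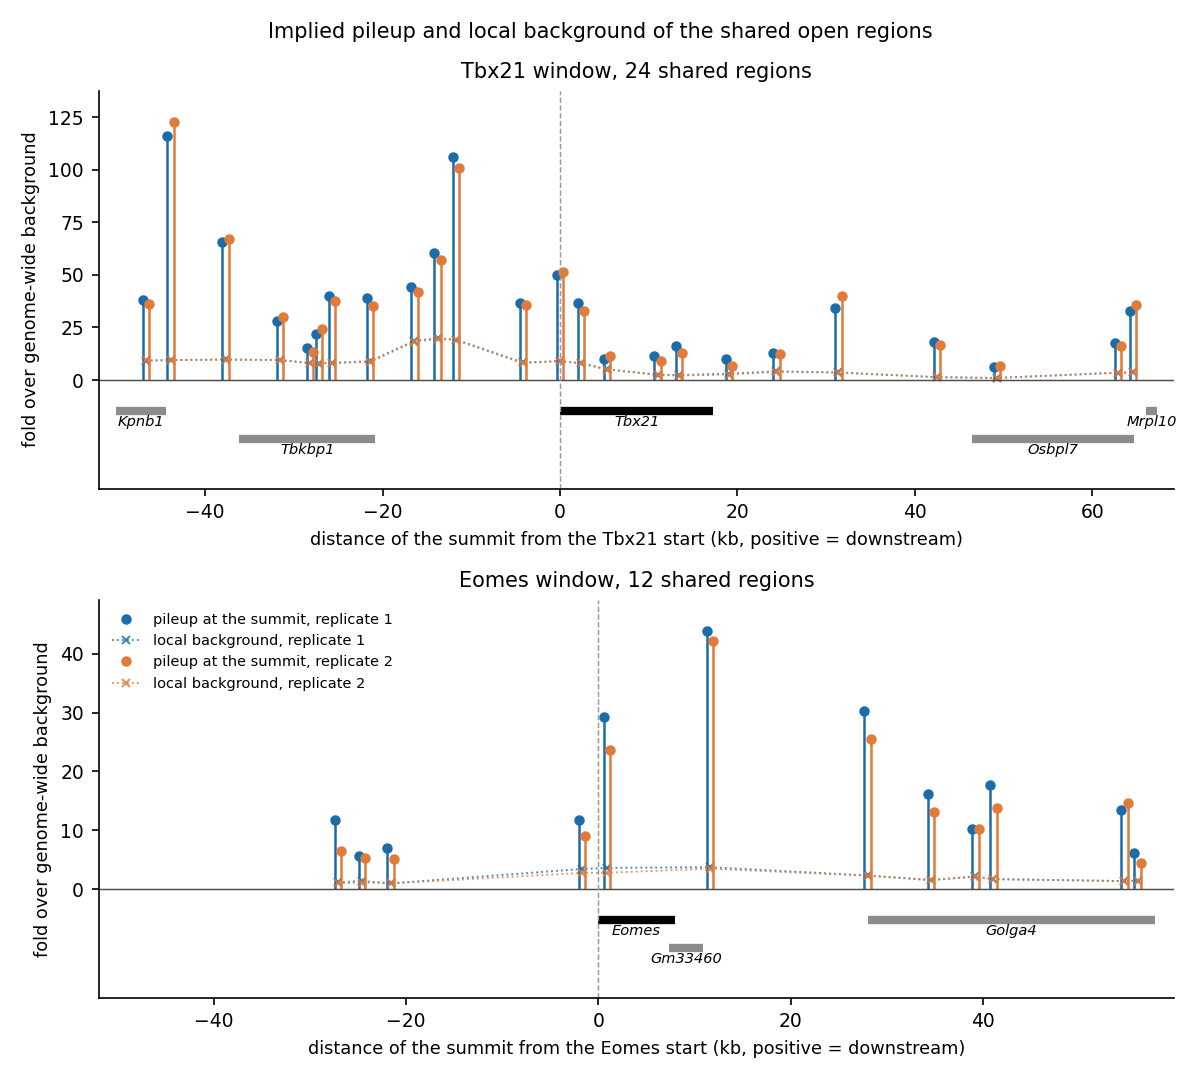
Implied pileup at the summit (points on stems) and local background (crosses; the dotted lines only join them) of the shared regions, both as fold over the genome-wide background (y axis), against distance from the gene start in kb, with genes as bars. The replicates are drawn slightly apart. In the Tbx21 window the pileup peaks at −43.9 and −11.7 kb and the background is raised upstream, and in the Eomes window the pileup peaks at 11.6 kb over a low background.

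Inside Tbx21 the open regions were weaker than the promoter by pileup. An intronic region at 2.4 kb had a pileup of 229 and 180 (signal 4.55 and 4.05). Further in, the pileup was 63 and 64 for a region at 5.3 kb and 70 and 50 for one at 11.0 kb. A region at 13.4 kb (chr11:97101588-97102307) overlapped exons 2 and 3 of the 6 exons, with a signal of 6.43 and 5.56 and a pileup of 101 and 70. By signal that exonic region and the promoter cannot be ordered, since their replicate values overlap.

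Beyond the end of Tbx21 the signal was low at first and mixed further on. The regions at 19.1 kb (3.25 and 2.41) and 24.4 kb (2.98 and 3.08) were among the weaker ones of the window. The intergenic region at 42.5 kb (chr11:97071712-97073111) had 11.8 and 11.4, second of 24 in both replicates, on a background of only 1.37-fold and 1.30-fold, and its pileup was 112 and 92. The intergenic region at 31.4 kb (chr11:97083005-97084384) had a signal of 9.11 and 10.8 and a pileup of 212 and 220. The region at 64.6 kb, with 8.75 and 9.48, covers a start of Osbpl7, an oxysterol-binding protein gene. The regions at 49.3 kb (5.40 and 5.99) and 62.9 kb (4.82 and 4.50) are promoter regions of Osbpl7 too. Both were below the median signal of all shared regions (6.92 and 6.72). By nearest coding start, 12 of the 24 regions belonged to Tbx21, 8 to Tbkbp1 and 4 to Osbpl7, so a window of this size does not mark regions of 1 gene.

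In the Eomes window the strongest open chromatin lay downstream of the gene. The region at 11.6 kb (chr9:118488895-118490133) had a signal of 11.3 and 11.5, a −log10 q of 183 and 158 and a pileup of 273 and 232, with the same summit in both replicates. It is the promoter region of Gm33460, an antisense noncoding gene next to Eomes, whose start lies 691 bp from the summit. The region over the start of Golga4, the gene of a Golgi protein, at 28.0 kb had 12.1 and 10.4, so by signal the 2 regions cannot be ordered. By pileup their replicate values did not overlap. The pileup of 188 and 141 at Golga4 lay 30.2-fold and 25.6-fold over the genome-wide background. That of the region at 11.6 kb lay 43.9-fold and 42.1-fold over it. Both regions exceeded the Eomes promoter by signal in each replicate.

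The 3 regions upstream of Eomes had low pileups. The region at −27.1 kb (chr9:118450858-118451631) had a signal of 8.86 and 5.68 and a pileup of 73 and 36. Its ratio of 1.56 was the only one of the 36 outside the central 95% range over all shared regions. At −24.6 kb the signal was 3.68 and 4.12 and at −21.6 kb 6.23 and 4.45, with pileups of 28 to 44, near the low end of the window. Of the 12 regions, 6 had Eomes as the nearest coding gene and 6 had Golga4, within whose gene body the regions from 34.6 to 56.1 kb lay.

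**Figure D3:**
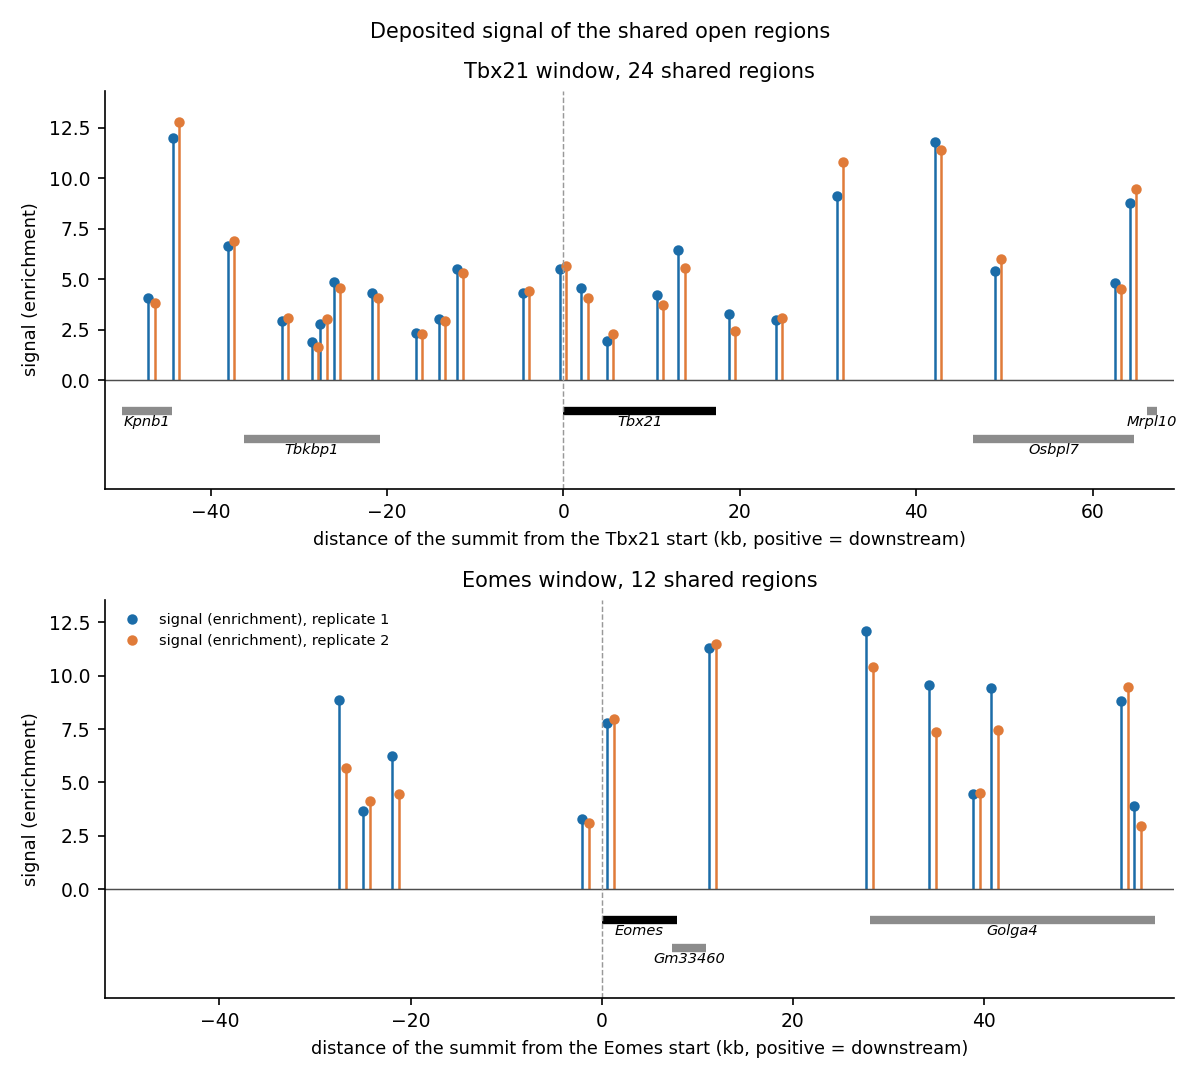
Deposited signal (enrichment, y axis) of the 24 shared regions of the Tbx21 window and the 12 of the Eomes window against distance from the gene start in kb, with genes as bars and the replicates drawn slightly apart. By signal the highest Tbx21 regions are at −43.9 and 42.5 kb, and the promoter (5.48 and 5.65) does not stand out.

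T-box letters were found in a larger share of the Eomes than of the Tbx21 regions. The motif GGTGTNA, searched on both strands within 100 bp of each summit, was present in 6 of 12 Eomes regions and in 2 of 24 Tbx21 regions, beside 11.2% of all shared regions. The 6 Eomes regions lay at −27.1, −1.7, 11.6, 34.6, 39.2 and 56.1 kb, and 4 of them carried the letters GGTGTGA. None of the Tbx21 regions carried these letters, beside 4.62% of all shared regions. The Eomes regions from 34.6 to 56.1 kb lay within the Golga4 gene body, with Golga4 as their nearest coding gene. The Tbx21 regions were at 49.3 kb, a promoter region of Osbpl7 inside its gene body, and at −21.4 kb, in the last exon of Tbkbp1. The latter held 2 copies of GGTGTCA, at chr11:97136695-97136701 and chr11:97136750-97136756, the second centred on the summit. The Tbx21 promoter held none. The counts are small, and their size depends on the window and the letters. Within 50 bp of the summit 2 Eomes and 1 Tbx21 region held the motif (6.44% of all shared regions), and within 200 bp 6 of 12 and 6 of 24 did (18.5%). With the shorter letters GTGTGA they were 4 of 12 and 5 of 24 (16.7%).

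The 10 other motifs were those of factors known to act with T-bet or in T cells, and matches of different motifs were counted separately where they overlapped. In the Tbx21 window the STAT motif TTCNNNGAA was in 5 of 24 regions (7.99% of all shared regions), the AP-1 motif TGANTCA in 10 (26.0%) and the RUNX motif TGTGGT in 8 (22.8%). The ETS motif AGGAAG was in 10 (31.8%), NFAT GGAAAA in 5 (13.1%), TCF CTTTGA in 4 (14.5%) and AGATAA, the motif of GATA factors, in 1 (6.91%). In the Eomes window AP-1 was in 4 of 12, GATA in 3, RUNX and ETS in 2 each, STAT and TCF in 1 each and NFAT in none. A CTCF motif, searched as a core with free positions, was in 4 Tbx21 and 2 Eomes regions (11.7%), and an IRF motif, a repeat with free positions, in 2 and 1 (4.99%). The NF-kB motif GGGANTTCC was in none of the 36 (1.52%). With counts this small, nothing is read from a difference to the share of all regions.

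Most genes of the T-box family had an open promoter in these cells, though most of the others are known from embryonic development. Beside Tbx21 and Eomes, 13 of 15 family members were open (86.7%), against 65.9% of all protein-coding genes. With promoter regions limited to 500 bp from a start, 11 were open. Dropping regions with a −log10 q under 5 left 12. No share of all genes is given for these settings. The median of the promoter signals of the family was low, at percentile 8.35 by signal and 10.2 by pileup among open promoters. Tbx10 and Tbx22 had no promoter region, and the Tbx22 window held no shared region at all. By signal Eomes was the fourth of the 15 open T-box genes, counting itself and Tbx21, after Mga (12.8 and 13.7), Tbx3 (12.9 and 10.9) and T (10.2 and 11.2), and its replicates did not overlap with either neighbour. Mga encodes a partner of MAX, and T the mesoderm factor brachyury. Tbx21 was 8th, its values between those of Tbx1 (6.43 and 5.41), which overlapped with them, and Tbr1 (4.63 and 5.26), which did not.

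By pileup the order changed. Mga led with 91.3-fold and 97.3-fold over the genome-wide background, Tbx21 came next with 50.1-fold and 51.4-fold, then Tbx6 with 41.9-fold and 40.8-fold and Eomes with 29.3-fold and 23.6-fold. Each of these 4 was apart from the next in both replicates, and every other T-box gene was at or below 18.2-fold. Tbx21 therefore had the highest promoter pileup of the family after Mga, and a middle place by signal.

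**Figure D4:**
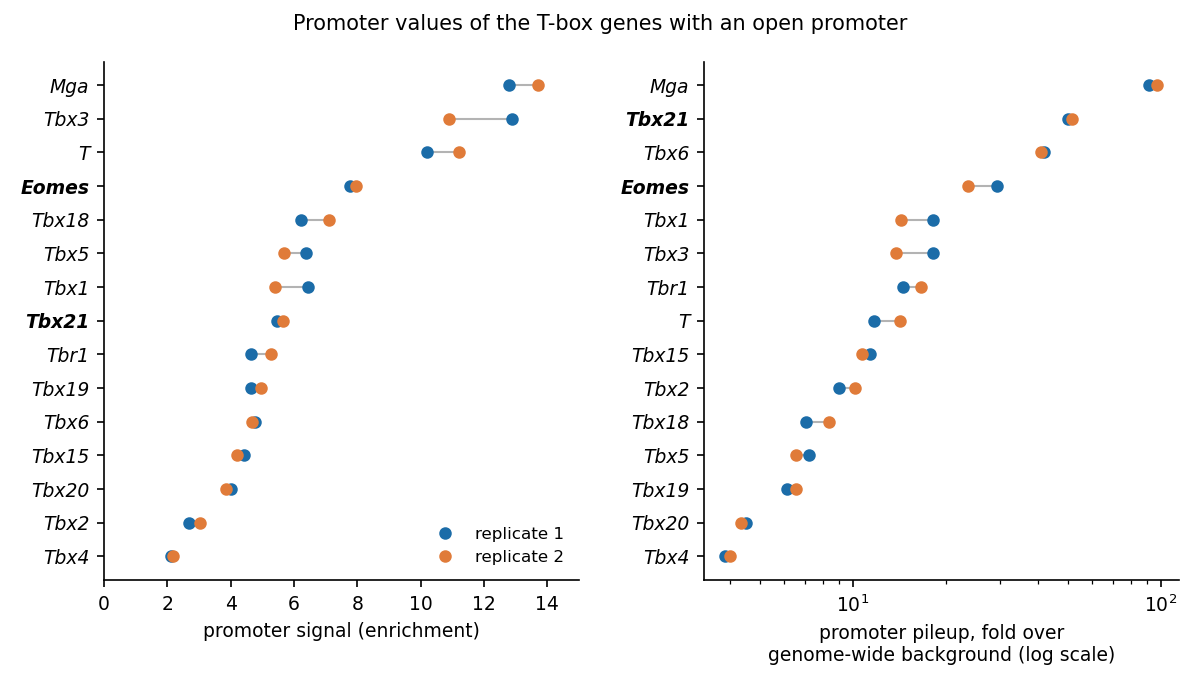
Promoter values of the 15 T-box genes with an open promoter in each replicate, as deposited signal (left, linear axis) and as implied pileup over the genome-wide background (right, log axis), each panel ordered by the mean. Tbx21 is 8th by signal and 2nd by pileup, and Eomes is 4th on both.

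Genes that act before and after T-bet were open throughout. All 11 inducers and partners had an open promoter, among them the interleukin-12 receptor gene Il12rb2 (63.6-fold and 67.3-fold pileup), Stat4, which carries its signal (34.7-fold and 31.8-fold), and Runx3 (134-fold in both replicates). Their windows had a median of 14.1 shared regions per 100 kb. All 14 targets of T-bet and Eomesodermin were open as well, with a median of 11.1 per 100 kb. Their promoters stood low among open promoters, at a median percentile of 24.5 by signal and 27.2 by pileup. By signal this was not particular to the targets. The median percentile was 26.7 for the inducers and partners and 17.7 for the T cell markers listed below. By pileup both of these lists stood higher, at 62.4 and 58.5. Ifng had a promoter pileup of 48.4-fold and 41.4-fold, and Il2rb, a receptor chain for interleukins 2 and 15, 116-fold and 115-fold. The cytotoxic genes Gzmb (36.8-fold and 39.7-fold) and Prf1 (22.7-fold and 23.6-fold) were lower. Lower still were the chemokine genes Ccl3 (16.7-fold and 17.4-fold) and Ccl4 (17.8-fold and 18.9-fold) and the chemokine receptor gene Cxcr3 (20.6-fold and 17.8-fold). This order holds for the named genes and not for their kinds. The chemokine gene Ccl5 was above Prf1 in both replicates, and the chemokine receptor gene Cxcr6 was above Gzmb. The members were well-known genes of the pathway, and these counts were set only beside the 65.9% of all protein-coding genes.

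Of the factor genes of other helper lineages, Gata3 and Bcl6 were set beside them. Gata3, which defines Th2 cells, had 13 shared regions (9.78 per 100 kb), and Bcl6, which defines follicular helper cells, 12 (9.69). Open regions covered 8.53% and 7.82% of their windows, against 19.2% at Tbx21. By both measures Tbx21 was above both genes, and Eomes (11.1 per 100 kb, 9.86% covered) was slightly above them. Outside promoters Bcl6 had 11 regions (8.89 per 100 kb, percentile 92.8) and Gata3 8 (6.02, percentile 75.2), against 16 (13.6) at Tbx21 and 7 (6.49) at Eomes, so by that count Eomes was below Bcl6. No test was run on these single windows. The promoter did not follow the density. Gata3 had the highest promoter values of the 4 genes (12.7 and 12.0, pileup 530 and 465) and Bcl6 a low signal (2.79 and 2.74) with a pileup of 229 and 195, between Tbx21 and Eomes. The median local background was 8.00-fold and 7.98-fold at Tbx21, 4.27-fold and 3.94-fold at Bcl6, 1.86-fold and 1.88-fold at Gata3 and 1.63-fold and 1.66-fold at Eomes.

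T cell markers were open throughout, and so were a few markers of other cells. Beside 65.9% of all protein-coding genes, all 8 T cell markers, Cd4 and the CD3 genes among them, had open promoters. The Cd4 promoter had a low signal (2.29 and 2.33), at percentile 0.259 among open promoters, and stood at percentile 25.4 by pileup. Of the CD8 markers Cd8a had none and Cd8b1 had one (7.32 and 8.14). Of the natural killer markers Klrb1c (18.3 and 16.1) and Klrd1 (5.13 and 4.06) were open and Ncr1 and Klra8 were not. Of the 4 B cell markers Pax5 alone was open, and of the 4 myeloid markers Cd14 alone, with Lyz2 open in replicate 1 only. With lists of at most 8 genes, nothing is read from a difference to the share of all genes. Eomes is used by CD8 T cells and natural killer cells, and the part of such cells in its open regions was not tested. An open region also does not show that the gene was transcribed, and no expression was measured.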

How the data were processed

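ATAC-seq regions of 2 replicates of T-helper 1 cells were analysed, 1 deposited list per replicate, called on that replicate alone per the file headers and region names. The region names carry the words masked, dedup and sorted, without saying what was masked or how. Which aligner and caller made them is not stated in any source used here. The labels give mm10 as the build. The deposited signal is a ratio, the authors' fold enrichment of a region, and the authors also deposited its −log10 p and −log10 q. The deposited display score was not used. These values were used to describe and rank regions within a list.

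Regions were assigned with GENCODE M21 on GRCm38.p6. Of 98875 and 91488 regions, 98786 and 91403 lay on its assembled chromosomes, and only these were joined into shared regions. Regions that came within 1 kb of a transcript start were promoter regions. A gene with a shared one had an open promoter, and a gene with several took the strongest. A percentile is the share of open promoters, gene windows or shared regions with a lower value. Pileup and local background were solved from signal and −log10 p, as (pileup + 1)/(background + 1) and a Poisson tail, within a relative tolerance of 0.0001, and the solution was checked on simulated data. For 34 and 57 regions no whole-number pileup was found within this tolerance, and the best one found was kept. The number of reads per list is not in the lists, so no counting interval is given. An implied pileup is a single solved value for which no error was computed. Promoter sequence came from RefSeq (GRCm38.p6), where both genes matched, and summit sequence from the GRCm38.p6 assembly. Scripts used Python 3.11.15, numpy 2.4.6, pandas 2.3.3, scipy 1.17.1 and matplotlib 3.10.9.

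With 1 group there was no comparison between conditions and no test. Any T-box gene, any region of the windows, genes starting in them and all members of the lists could be named. The genes, lists and rules were chosen with earlier results of these data known. The values of 1 gene and the letters of 1 region that these rules cover are not reported here.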

Additional observations from a re-analysis of the deposited data

How the results depend on the processing

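Of 60 values recomputed under another setting, 42 stayed near the reported one and 18 moved, counts by more than 1.5 times and percentiles by at least 1 SD of the replicates, which is under the last printed digit for some of Tbx21. Counts of shared regions followed the window. With 20 kb on either side Tbx21 had 12 and Eomes 4, and with 100 kb 39 and 22. The density percentile of Tbx21 was 99.8 when at least 50% of both regions had to overlap, 99.6 at a −log10 q of at least 5, 99.1 with 20 kb, 99.8 with 100 kb, 99.5 outside promoters, and 99.8 to 99.9 without either replicate. That of Eomes was 60.7 with 20 kb and 77.6 to 83.5 without either replicate. Within 2.5 kb of a start Tbx21 had 2 promoter regions in place of 1. The percentile of the Tbx21 promoter was 30.9 by −log10 q and 48.3 by implied pileup, the latter added after the data were seen. Without replicate 2, the region of highest signal in the Eomes window was that at 28.0 kb in place of 11.6 kb; without replicate 1 it stayed at 11.6 kb. The T-box motif was in 3 regions within 50 bp of the summit (6.44% of all shared regions). With the letters GGTGTGA it was in 4, all in the Eomes window (4.62%). Around the replicate 2 summits it was in 2 Tbx21 and 5 Eomes regions (11.2%). The cause of these moves was not tested, beyond fewer or more regions being counted. What depth limits was not tested, since the reads per list are not in the lists. No paired analysis was possible because there is 1 group.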

Other observations

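The genes around the 2 windows had open promoters themselves. Kpnb1, an importin gene whose body reaches into the Tbx21 window while its start lies beyond it, was looked at after its values were seen. Its promoter had a signal of 10.3 and 9.91 and a pileup of 1290 and 1080, above 99.8% of open promoters by pileup and above 40.4% by signal. Tbkbp1 had 6.62 and 6.87 with a pileup of 410 and 369, Osbpl7 8.75 and 9.48 with 204 and 196, and Golga4 12.1 and 10.4 with 188 and 141. The median local background over the window was 8.24-fold and 8.09-fold at Kpnb1, 8.08-fold and 8.04-fold at Tbkbp1 and 3.54-fold and 3.51-fold at Osbpl7. These windows overlap that of Tbx21 and share regions with it.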
